A study of Mus musculus with 12 samples.

Results

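Transcripts of skeletal muscle were followed in whole liver of mice aged 2 weeks. The set holds 37 genes that encode fibre type isoforms and other parts of the contractile apparatus, out of 19938 genes measured on the arrays. A gene entered through its transcript clusters annotated to that gene alone, and the cluster with the highest mean over the arrays stood for it. The 37 genes were chosen by their log2 signals in these same arrays, in which muscle transcripts had differed with the Mdr2 knockout, so that difference is described here and not tested.

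The 12 Affymetrix arrays covered 4 genotypes with 3 arrays each, lettered A, B and C. These were Stat3Δhc on an Mdr2 knockout (Mdr2-/- Stat3Δhc), floxed Stat3 on the same knockout (Mdr2-/- floxed), Stat3Δhc with intact Mdr2, and floxed Stat3 (Stat3Fl/Fl) with intact Mdr2. By their names, all 4 genotypes carry an engineered Stat3 allele, either floxed or deleted, and no wild-type group is among the 12 arrays. The labels name neither the promoter that drove the deletion nor whether each array is a separate animal, so the spread between arrays may be partly technical. Groups follow the sample titles, since the source name field swaps both Mdr2-/- genotypes.

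The arrays read as liver throughout, with a mean of 10 measured hepatocyte genes between 12.76 and 12.99 on the log2 scale in every array. Stat3 lay at 7.69 to 8.12 in the 6 Stat3Δhc arrays and at 9.19 to 9.54 in the 6 floxed arrays. Abcb4, which encodes the phospholipid transporter Mdr2, lay at 8.87 to 9.36 in the 6 Mdr2-/- arrays and at 10 to 10.28 in the other arrays. Array medians ran from 6.01 to 6.14. Xist, transcribed from the inactive X chromosome, was high in the 3 Mdr2-/- floxed arrays and in array A of Mdr2-/- Stat3Δhc (11.27 to 11.34), and low in the other 8 arrays (3.78 to 4.79).

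Adult skeletal muscle is a mosaic of fibres. Slow fibres carry the slow myosin heavy chain, depend on oxidative metabolism and resist fatigue, while fast fibres carry the IIa, IIx or IIb heavy chains and rely increasingly on glycolysis. Embryonic and perinatal heavy chains are used first and are replaced by the adult fast chains after birth. Troponins, light chains, myosin binding proteins and calcium pumps also come as fast and slow isoforms, whereas hepatocytes build no sarcomeres.

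The genes of the fast and developmental myosin heavy chains lie side by side on chromosome 11. The upstream sequences of Myh1, Myh4 and Myh8 are shown because these genes behaved differently among the arrays described below and because each holds the same match to the binding motif of MEF2, a muscle transcription factor. Each is the stretch of 250 bases before the gene start on the plus strand, from RefSeq on GRCm38.p6, with the MEF2 match in capitals.
Myh1 (chr11:67199852-67200101): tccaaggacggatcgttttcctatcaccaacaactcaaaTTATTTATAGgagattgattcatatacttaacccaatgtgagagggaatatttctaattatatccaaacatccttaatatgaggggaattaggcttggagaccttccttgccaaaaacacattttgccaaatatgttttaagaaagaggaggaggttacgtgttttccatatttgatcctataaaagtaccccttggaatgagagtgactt
Myh4 (chr11:67237562-67237811): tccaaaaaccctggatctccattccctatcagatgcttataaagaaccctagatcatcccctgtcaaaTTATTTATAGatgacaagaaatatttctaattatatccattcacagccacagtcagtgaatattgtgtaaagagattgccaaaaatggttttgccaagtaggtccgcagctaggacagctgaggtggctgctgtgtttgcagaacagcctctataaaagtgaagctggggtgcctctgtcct
Myh8 (chr11:67276874-67277123): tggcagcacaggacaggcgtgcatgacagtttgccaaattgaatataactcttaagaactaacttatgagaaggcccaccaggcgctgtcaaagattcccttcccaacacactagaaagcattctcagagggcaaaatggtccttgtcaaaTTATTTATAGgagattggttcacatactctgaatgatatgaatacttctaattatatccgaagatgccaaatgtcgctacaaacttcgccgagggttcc
The match began 211 bases before the start of Myh1, 182 bases before that of Myh4 and 99 bases before that of Myh8. Promoter windows of 300 bases, from 250 before to 50 after the start, were found for 30 of the 37 genes (36 windows). Searched on both strands, the MEF2 motif was present in 6 of these windows (16.7%), against 3.19% of 32851 windows of all genes. Besides the 3 myosins, these were windows of Ttn, Xirp2 and Pvalb. The serum response motif CArG was present in 4 windows (11.1%, against 1.63%), the MCAT motif CATTCC in 11 (30.6%, against 14.7%), TATAAA in 9 (25%, against 13.6%) and the E-box CANNTG in 30 (83.3%, against 72.3%). The capitals above overlap a TATAAA match on the opposite strand. These are letter matches and no evidence of binding.

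The fast isoforms were low in Mdr2-/- livers and high in all Mdr2-intact livers, and Myh1 showed the widest separation. Myh1, the fast IIx heavy chain, gave log2 signals of 4.11, 4.50 and 4.47 in Mdr2-/- Stat3Δhc liver and 4.49, 4.16 and 4.23 in Mdr2-/- floxed liver. It gave 10.09, 9.65 and 9.70 in Stat3Δhc liver and 9.62, 10.17 and 9.90 in floxed liver. The groups were far apart, with a difference of means of -5.45 in Stat3Δhc liver and -5.60 in floxed liver (Mdr2-/- minus intact, log2). Averaged over both backgrounds, this was the largest fall among all 19938 genes. All 6 Mdr2-/- values of Myh1 were below the 25th percentile of their arrays (4.67 to 4.74), so the size of the difference is limited by the low end of the scale.

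**Figure D1:**
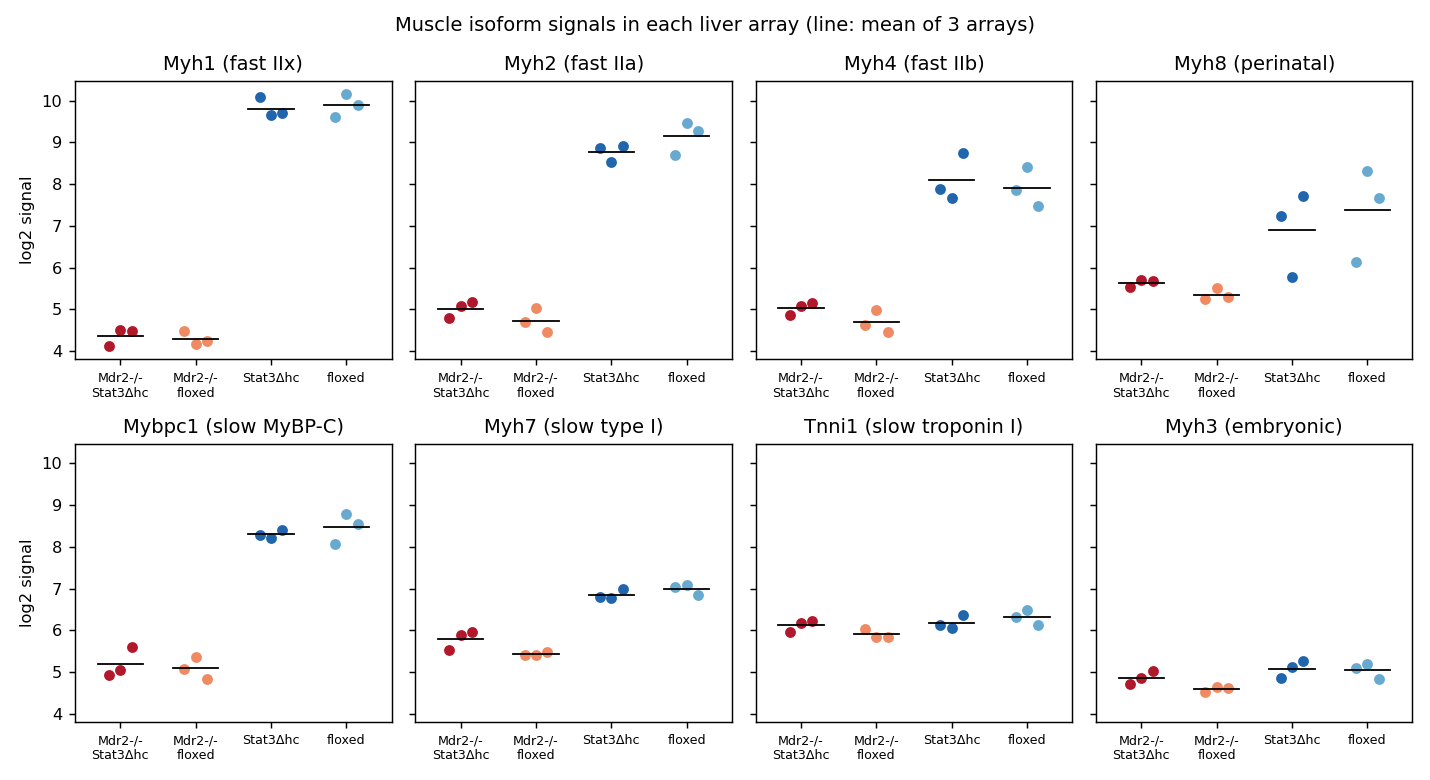
Log2 signal of 8 fibre type isoforms in each of the 12 liver arrays, by genotype (points: arrays A, B and C from left to right; line: mean of 3). Myh1 lies at 4.11 to 4.50 in Mdr2-/- arrays and at 9.62 to 10.17 in the others, Tnni1 and Myh3 lie close together in all genotypes, and Myh8 spreads from 5.77 to 8.32 among the arrays with intact Mdr2.

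Myh2, the fast IIa heavy chain, lay at 4.79, 5.08 and 5.17 in Mdr2-/- Stat3Δhc liver and at 4.69, 5.02 and 4.45 in Mdr2-/- floxed liver. Its values were 8.86, 8.54 and 8.92 in Stat3Δhc liver and 8.70, 9.47 and 9.27 in floxed liver. The differences were -3.76 and -4.43 in the Stat3Δhc and floxed backgrounds, with no overlap. Myh4, the fast IIb heavy chain, lay at 4.87, 5.08 and 5.14 in Mdr2-/- Stat3Δhc liver and at 4.63, 4.98 and 4.46 in Mdr2-/- floxed liver. In Stat3Δhc liver it lay at 7.89, 7.68 and 8.75, and in floxed liver at 7.86, 8.41 and 7.48. Its groups did not overlap either, but the Mdr2-intact arrays spread over 1.27 log2 units, against 0.55 for Myh1. Fast myosin genes are close relatives, and the positions of the probes were not used here, so how far the clusters share signal was not tested.

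The partners of the fast heavy chains followed the same division. Myl1 and Mylpf, the alkali and regulatory light chains of fast myosin, were lower in Mdr2-/- liver by differences of -4.17 and -3.01 in the Stat3Δhc background and of -4.01 and -3.46 in the floxed background. The fast troponins Tnnc2 (calcium binding), Tnnt3 (tropomyosin binding) and Tnni2 (inhibitory) differed by -3.18, -3.86 and -1.89 in the Stat3Δhc background and by -3.23, -3.86 and -2.05 in the floxed background. Atp2a1, the calcium pump of fast fibres, averaged 5.89 ± 0.39 in Mdr2-/- Stat3Δhc and 5.87 ± 0.08 in Mdr2-/- floxed liver, against 9.78 ± 0.08 in Stat3Δhc and 9.62 ± 0.21 in floxed liver (SD, n = 3 each). Casq1, which stores calcium in the sarcoplasmic reticulum of fast fibres, differed by -2.75 and -3.14, and Pvalb, their soluble calcium buffer, by -2.11 and -2.60, each in the Stat3Δhc and then the floxed background. The Z-disc actinin of fast fibres, Actn3, differed by -1.75 in the Stat3Δhc and -1.79 in the floxed background. Mybpc2, the fast myosin binding protein C, had the smallest difference of the 13 fast isoforms, -1.02 and -1.29 in these backgrounds.

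For all 13 fast isoforms the Mdr2-/- arrays lay at least 2-fold below the Mdr2-intact arrays with no overlap in both backgrounds, and the median difference was -3.08 in Stat3Δhc and -3.23 in floxed liver. Over all genes measured, 0.747% in Stat3Δhc liver and 0.652% in floxed liver were as far apart, and the median gene differed by 0.02 over both. Because the genes were picked for this contrast, nothing is read from these counts.

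The median difference of the slow isoforms was smaller, with Mybpc1 set apart. The sizes overlapped those of the fast isoforms, since Myh7 differed by more than the fast Mybpc2 in both backgrounds. Myh7, the slow type I heavy chain that the heart also uses, lay at 5.52, 5.88 and 5.96 in Mdr2-/- Stat3Δhc liver and at 5.40, 5.41 and 5.47 in Mdr2-/- floxed liver. It lay at 6.79, 6.78 and 7.0 in Stat3Δhc liver and at 7.03, 7.09 and 6.85 in floxed liver. The groups did not overlap, and the differences were -1.07 in Stat3Δhc and -1.57 in floxed liver. Tnnc1, the calcium-binding troponin of slow and heart muscle, differed by -0.63 and -0.95 in those backgrounds, and Tnnt1, the slow tropomyosin-binding troponin, by -0.94 and -0.88.

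Tnni1, the inhibitory troponin of slow fibres, separated little. It lay at 5.96, 6.18 and 6.23 in Mdr2-/- Stat3Δhc liver and at 6.02, 5.84 and 5.84 in Mdr2-/- floxed liver. In Stat3Δhc liver its values were 6.13, 6.05 and 6.36, and in floxed liver 6.31, 6.48 and 6.13. The arrays overlapped in the Stat3Δhc background (difference -0.06) and were just apart in the floxed background (-0.41). The largest difference among the slow isoforms was that of Mybpc1, the slow myosin binding protein C, which fast fibres also make. It lay at 4.92, 5.04 and 5.60 in Mdr2-/- Stat3Δhc liver and at 5.07, 5.35 and 4.84 in Mdr2-/- floxed liver, against 8.28, 8.21 and 8.40 in Stat3Δhc liver and 8.08, 8.78 and 8.55 in floxed liver. With differences of -3.11 and -3.38, it lay among the fast isoforms in size.

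The median over the 5 slow isoforms was -0.94 in Stat3Δhc and -0.95 in floxed liver. Array by array, the mean elevation above the Mdr2-/- mean was 3.16, 2.84 and 3.32 log2 units for the fast isoforms in Stat3Δhc liver and 2.92, 3.65 and 3.11 in floxed liver. For the slow isoforms it was 1.20, 1.13 and 1.45 in Stat3Δhc liver and 1.26, 1.46 and 1.30 in floxed liver. The fast elevation was thus the greater in each of the 6 arrays, by 1.66 to 2.19 log2 units. Probes differ in how steeply their signal follows RNA, so these differences are not amounts of fast and slow RNA, and no fibre proportion can be taken from them.

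Of 9 further genes that slow fibres use, 4 fell in each Mdr2 comparison by limma (adjusted p under 0.05). Of all tested genes, 10.5% were called lower in Stat3Δhc liver and 5.65% in floxed liver. Casq2, the slow and cardiac calsequestrin, differed by -1.57 in Stat3Δhc liver and -2.08 in floxed liver, and Myoz2, a Z-disc protein of slow fibres and heart, by -1.46 and -1.91. The slow light chains Myl2 and Myl3 differed by -0.92 and -0.64 in Stat3Δhc liver and by -1.43 and -0.78 in floxed liver. These are the 4 genes that passed, and all 4 were below the 40th percentile in every Mdr2-/- array. They entered testing only through the arrays where they are high, so nothing is read from their count and no p is given. The other 5 genes did not pass. They were above the 40th percentile in at least 3 Mdr2-/- arrays, and how much of their signal comes from muscle was not tested.

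The developmental heavy chains behaved unlike each other. Myh3, the embryonic chain, lay at 4.70, 4.85 and 5.03 in Mdr2-/- Stat3Δhc liver and at 4.53, 4.65 and 4.62 in Mdr2-/- floxed liver, against 4.85, 5.11 and 5.26 in Stat3Δhc and 5.09, 5.19 and 4.83 in floxed liver. The differences were -0.21 and -0.44. Myh3 was the only one of the 37 genes below the 40th percentile of every array, and so the only one left out of testing. At that level the arrays cannot show whether the transcript is present.

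Myh8, the perinatal heavy chain, lay at 5.54, 5.70 and 5.67 in Mdr2-/- Stat3Δhc liver and at 5.25, 5.5 and 5.30 in Mdr2-/- floxed liver. It lay at 7.24, 5.77 and 7.72 in Stat3Δhc liver and at 6.13, 8.32 and 7.68 in floxed liver. The Mdr2-/- arrays kept within 0.45 log2 units of each other, while the arrays with intact Mdr2 spread over 2.55 log2 units, the widest range among the 37 genes. Array B of Stat3Δhc liver was just above the highest Mdr2-/- array, whereas array B of floxed liver was far above it. On a linear scale, with the Mdr2-/- mean subtracted and the mean of the 6 Mdr2-intact arrays set to 100, Myh8 amounted to 85.7, 7.5 and 134.2 in Stat3Δhc liver and 20.1, 222.6 and 129.8 in floxed liver. The lowest of these lies too near the Mdr2-/- arrays for a ratio to be taken.

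Mb, the oxygen-binding myoglobin of oxidative fibres and heart, was the opposite case. In Mdr2-/- liver it lay at 6.52, 6.67 and 6.32 with Stat3Δhc and at 6.23, 6.49 and 5.89 with floxed Stat3. It lay at 9.05, 9.02 and 9.14 in Stat3Δhc liver and at 9.16, 9.15 and 9.14 in floxed liver. The groups were apart by differences of -2.57 and -2.95, and the range over the 6 Mdr2-intact arrays, 0.14, was the narrowest among the 37 genes. On the same linear scale it amounted to 95.1, 92.8 and 102.6 in Stat3Δhc liver and 103.7, 103.3 and 102.6 in floxed liver. The SD over the 6 Mdr2-intact arrays had a median of 0.24 over the 37 genes, against 0.13 over all genes, and ran from 0.06 (Mb) to 0.99 (Myh8).

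**Figure D2:**
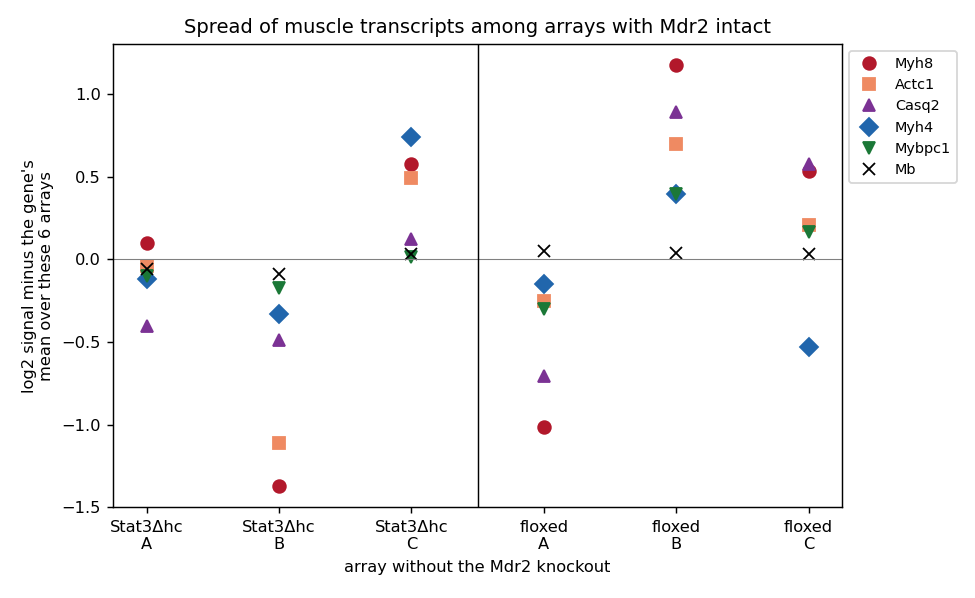
Log2 signal of 6 muscle genes in the 6 arrays with intact Mdr2, each minus its own mean over these arrays (Stat3Δhc left, floxed right). Mb stays within a range of 0.14, while Myh8 ranges over 2.55 and Actc1 follows the same order of arrays as Myh8. Casq2 and Actc1 were added after their values were seen.

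The order of the arrays differed by gene. Array B of floxed liver was the highest Mdr2-intact array for 28 of the 37 genes, and the lowest was array A of floxed liver for 16 and array B of Stat3Δhc liver for 15. Actc1, the cardiac actin that immature skeletal muscle also makes, ran in the order of Myh8, with 7.67, 6.60 and 8.20 in Stat3Δhc liver and 7.46, 8.41 and 7.92 in floxed liver. Myh4 had another order. Its highest array was C of Stat3Δhc liver (8.75) and its lowest was C of floxed liver (7.48), where Myh8 (7.68) and Casq2 (7.14) were among the higher values. After subtraction of each genotype mean, the correlation of a gene with the mean of the set over the 12 arrays was 0.94 for Mylpf and Tpm2, 0.86 for Myh8, 0.66 for Myh1, 0.16 for Mb and -0.09 for Trim63. These 12 points share arrays and tissue pieces and include the gene itself in the mean.

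The structural genes of the sarcomere and Z-disc divided the genotypes in the same way. Acta1, the actin of skeletal thin filaments, lay at 6.44, 6.92 and 6.60 in Mdr2-/- Stat3Δhc liver and at 6.65, 6.33 and 6.13 in Mdr2-/- floxed liver. It lay at 10.75, 10.40 and 10.51 in Stat3Δhc liver and at 10.36, 11.20 and 10.66 in floxed liver, with differences of -3.90 and -4.37 and no overlap. Ttn, the titin spring, differed by -3.45 in Stat3Δhc and -3.67 in floxed liver, and Neb, the thin filament ruler nebulin, by -2.69 and -2.83. The Z-disc proteins Actn2 and Myot, an actinin and the actin-bundling myotilin, differed by -2.62 and -2.67 in Stat3Δhc liver and by -2.93 and -2.72 in floxed liver. Tpm2, a tropomyosin, and Xirp2, an actin-binding repeat protein, differed by -2.21 and -1.75 in Stat3Δhc liver and by -2.04 and -1.86 in floxed liver.

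Smaller differences were seen for the Z-disc genes Tcap (-1.40 in Stat3Δhc and -1.47 in floxed liver), Myoz1 (-1.29 and -1.48) and Ldb3 (-0.64 and -0.99). Trim63, the ubiquitin ligase induced in muscle atrophy, was the least changed of the 11 genes. It lay at 5.32, 5.88 and 5.71 in Mdr2-/- Stat3Δhc and 5.53, 5.46 and 5.53 in Mdr2-/- floxed liver, against 5.78, 5.97 and 5.73 in Stat3Δhc and 5.94, 5.80 and 5.92 in floxed liver. These values overlapped in the Stat3Δhc background.

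Genes of excitation and energy supply were also lower in Mdr2-/- liver. Ckm, the muscle creatine kinase that buffers ATP, lay at 6.35, 6.52 and 6.95 in Mdr2-/- Stat3Δhc and 6.06, 6.02 and 5.88 in Mdr2-/- floxed liver, against 9.93, 9.62 and 9.96 in Stat3Δhc and 9.37, 10.16 and 9.58 in floxed liver. The differences were -3.23 and -3.72. Eno3, the muscle enolase, and Pygm, the glycogen phosphorylase of muscle, differed by -1.68 and -1.67 in Stat3Δhc liver and by -2.09 and -1.65 in floxed liver. Ryr1 and Cacna1s, the calcium release channel and the voltage sensor that opens it, differed by -1.46 and -0.68 in Stat3Δhc liver and by -1.31 and -1.03 in floxed liver.

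**Figure D3:**
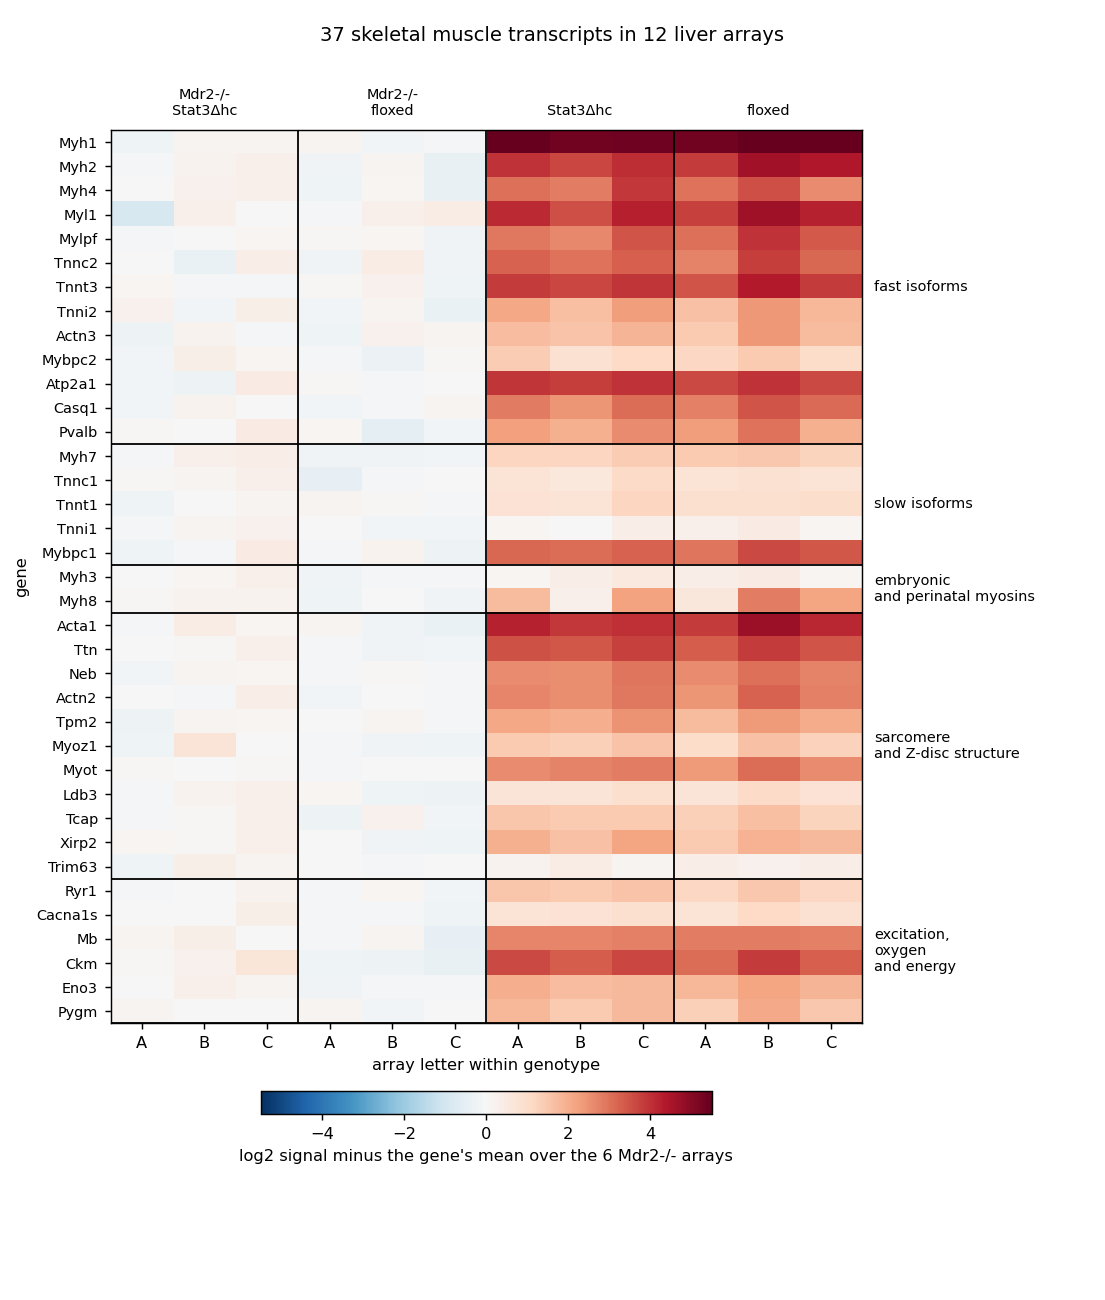
Log2 signal of the 37 genes (rows, by role) in the 12 arrays (columns, by genotype), each minus the gene's mean over the 6 Mdr2-/- arrays. All 6 Mdr2-intact arrays are raised for most genes, least for Tnni1, Myh3 and Trim63, and Myh8 is near the Mdr2-/- level in array B of Stat3Δhc liver.

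Over the whole set, Mdr2-/- arrays lay below the Mdr2-intact arrays with no overlap for 34 of 37 genes in Stat3Δhc liver, beside 16.4% of all genes, and for 37 of 37 in floxed liver, beside 13.4%. The medians were -2.11 and -2.09. For 34 genes all 6 Mdr2-/- arrays lay below all 6 others, as they did for 3.75% of all genes, and the exceptions were Tnni1, Myh3 and Trim63. Both comparisons use separate arrays, but the genes were picked for this contrast in these same arrays. Of the 50 largest falls on the array, 22 belonged to the set, which holds 37 of the 19938 genes. Nothing is read from these counts or from the likeness of both comparisons. In the Mdr2-/- arrays 12 of the 37 genes never passed the 40th percentile and 18 passed it in at least 3 arrays, so the level that remains there was not resolved for many of them. In whole tissue, fewer muscle cells in the sample and less RNA per cell cannot be told apart. Where the muscle RNA came from was not tested.

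**Figure D4:**
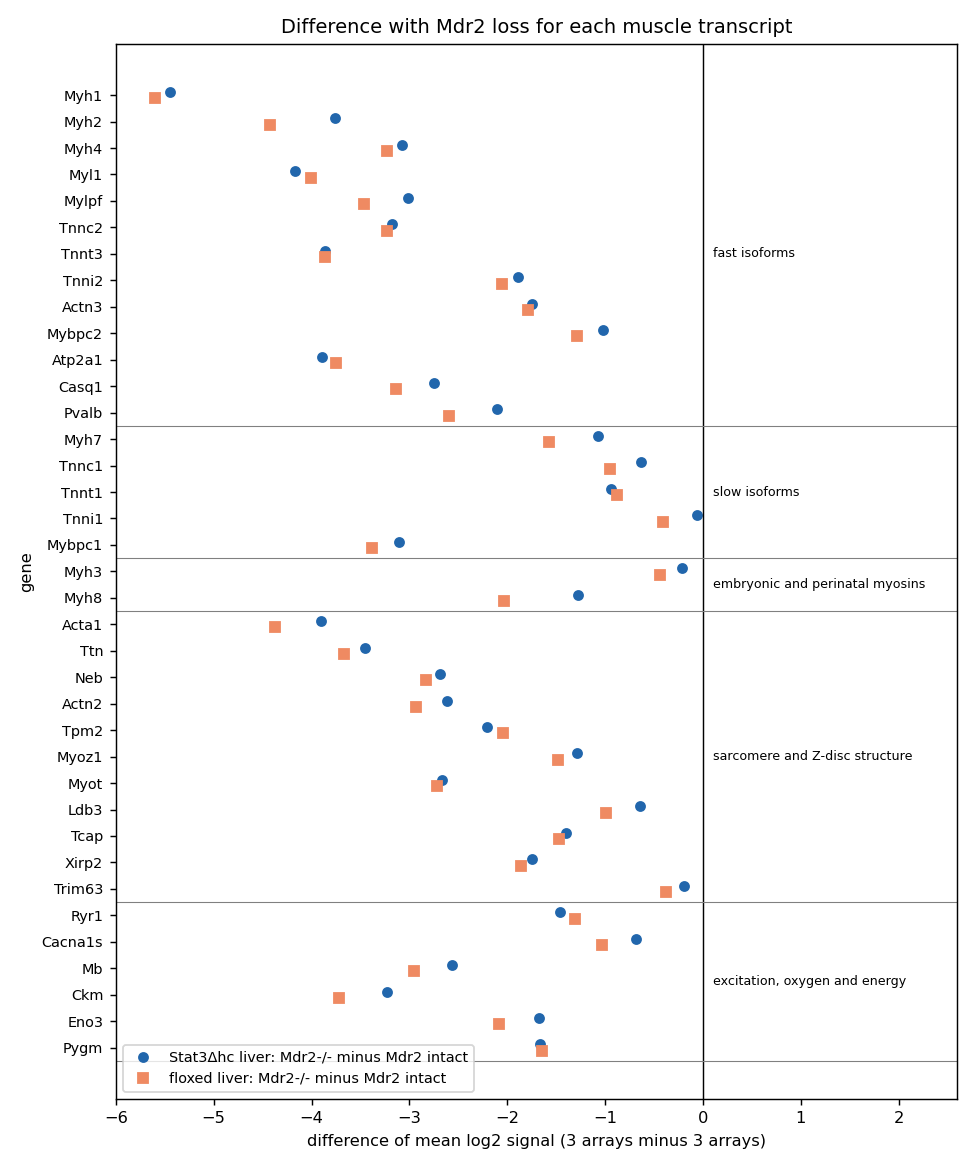
Difference of mean log2 signal, Mdr2-/- minus intact, for each of the 37 genes by role, in Stat3Δhc liver (circles) and in floxed liver (squares). Fast isoforms reach -5.45 and -5.60 (Myh1), while 4 of the 5 slow isoforms lie between -1.57 and -0.06.

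Other muscle genes outside the set moved with it. Of 32 further skeletal muscle genes, 26 fell in Stat3Δhc liver and 28 in floxed liver by limma, beside 10.5% and 5.65% of all tested genes. Of these, 15 and 17 were above the 40th percentile in at least 3 Mdr2-/- arrays, and the others entered testing through the Mdr2-intact arrays. Cox8b, the muscle form of a cytochrome oxidase subunit, fell, with changes of -2.69 in Stat3Δhc liver (adjusted p = 8.01e-07) and -2.94 in floxed liver (adjusted p = 2.54e-07). Myom1, the M-band protein myomesin, fell, with changes of -2.09 in Stat3Δhc liver (adjusted p = 5.30e-06) and -2.13 in floxed liver (adjusted p = 4.52e-06). Ckmt2, the mitochondrial creatine kinase of muscle, and Smpx, a small costamere protein, differed by -2.53 and -2.28 in Stat3Δhc liver and by -2.59 and -2.69 in floxed liver. Both entered testing through the Mdr2-intact arrays, so no p is given. These lists too were written with earlier results of the arrays known.

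Of 10 tested myogenic regulator and satellite cell genes, 2 fell in Stat3Δhc liver, beside 10.5% of all tested genes, and 4 in floxed liver, beside 5.65%. The median change of the 10 genes was 0.15 in Stat3Δhc liver, where 7 were positive, and -0.22 in floxed liver, where 1 was. Mef2c, a MEF2 factor, fell, with changes of -0.59 in Stat3Δhc liver (adjusted p = 0.00242) and -0.61 in floxed liver (adjusted p = 0.00252). Myf6, the myogenic factor of mature fibres, differed by -0.68 and -1.12 in these backgrounds, but lay below the 40th percentile in every Mdr2-/- array and entered testing only through the other arrays. Myod1, the determination factor, fell in floxed liver by 0.59 (adjusted p = 0.0103) and had a change of 0.07 in Stat3Δhc liver (adjusted p = 0.711). Of 7 tested genes of the neuromuscular junction, 0 passed in either background at an adjusted p under 0.05, and 1 in each had an unadjusted p under 0.05, beside 34.7% of all tested genes in Stat3Δhc liver and 25.9% in floxed liver. Chrng, the receptor subunit of immature muscle, lay at 5.79, 5.97 and 6.26 in Mdr2-/- Stat3Δhc and 5.96, 5.73 and 5.60 in Mdr2-/- floxed liver, against 5.76, 5.83 and 5.49 in Stat3Δhc and 5.71, 5.66 and 5.65 in floxed liver.

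Markers of other contractile cells were set beside these. Of 8 tested heart muscle genes, Actc1 alone fell in either background, beside 10.5% and 5.65% of all tested genes, with changes of -1.60 in Stat3Δhc liver (adjusted p = 0.00798) and of -1.73 in floxed liver (adjusted p = 0.00571). The other 11 measured heart genes differed between Mdr2-/- and intact liver by between -0.28 and 0.34, and 4 of them did not pass the filter on low signals. The mean of the 12 measured heart genes was 5.58 to 5.90 in Mdr2-/- arrays and 5.75 to 5.95 in the others. Of 8 tested smooth muscle genes, 4 fell in each background, beside the same shares. Of these 4, 3 exceeded the level of the filter on low signals in at least 3 Mdr2-/- arrays. The other, Synpo2, exceeded it in only 1 and entered testing through the Mdr2-intact arrays, so nothing is read from its fall. Among the 3 were the smooth muscle actin Acta2 and the smooth muscle heavy chain Myh11. Acta2 changed by -1.15 in Stat3Δhc liver (adjusted p = 0.00113) and by -0.87 in floxed liver (adjusted p = 0.00665). Myh11 changed by -0.93 in Stat3Δhc liver (adjusted p = 0.00424) and by -0.79 in floxed liver (adjusted p = 0.0126). Their list mean was 6.43 to 6.60 in Mdr2-/- arrays and 6.62 to 6.98 in the others.

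Transcripts of neighbouring tissues also varied. The mean of 15 exocrine pancreas genes was 5.44 to 5.77 in Mdr2-/- arrays. In Stat3Δhc liver it was 5.76, 7.66 and 9.60, and in floxed liver 5.67, 8.5 and 7.08. The mean of the 37 muscle genes, which were picked for this contrast, was 7.70 to 8.27 in these 6 arrays. In Mdr2-/- arrays it was 5.47 to 5.82. Array A of Stat3Δhc liver had a muscle mean of 7.91 and a pancreas mean of 5.76, and array A of floxed liver 7.70 and 5.67. Array B of Stat3Δhc liver, with a pancreas mean of 7.66, was lowest for Myh8 and for 15 of the 37 genes in all. Other arrays went the other way. Array B of floxed liver (pancreas mean 8.5) was highest for 28 genes and array C of Stat3Δhc liver (9.60) for 7. Array A of floxed liver (5.67) was lowest for 16. Of 14 tested pancreas genes, 2 fell in Stat3Δhc liver, beside 10.5% of all tested genes, and 0 in floxed liver, beside 5.65%, by limma. At an unadjusted p under 0.05 the counts were 10, beside 34.7%, and 3, beside 25.9%. Of the 14 genes, 4 exceeded the level of the filter on low signals in 0 Mdr2-/- arrays and entered testing through the Mdr2-intact arrays. Only 9 exceeded it in at least 3 Mdr2-/- arrays, so nothing is read from the counts at an unadjusted p. The 2 genes called in Stat3Δhc liver were among these 9. Over the other settings the count called in Stat3Δhc liver ran from 1 to 12. The part of pancreas RNA in the muscle signal was not tested. The mean of 8 fat cell genes was 5.28 to 5.62 in Mdr2-/- arrays. With intact Mdr2 it was 6.02 in array C of Stat3Δhc liver and 5.44 to 5.70 in the other arrays. Ucp1 lay at 6.89 in that array C, against 4.43 to 5.06 in the other Mdr2-intact arrays. The mean of 6 nerve sheath and tendon genes was 5.85 to 6.19 in Mdr2-/- arrays and 6.24 to 6.53 in the Mdr2-intact arrays. In Mdr2-/- Stat3Δhc liver, arrays B and C had low Xist like all Mdr2-intact arrays, and had mean levels of the 37 genes of 5.74 and 5.82, against 7.70 to 8.27 in the Mdr2-intact arrays. Array A of Mdr2-/- Stat3Δhc liver, with high Xist, had a mean of 5.54. In floxed liver the Xist pattern and the knockout cannot be told apart. The 37 genes were picked for this contrast, and the part of sex in their difference was not tested in either background.

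Deletion of Stat3 could be tested, since it had no part in the choice of genes. With intact Mdr2, 0 of 36 tested genes passed an adjusted p of 0.05 by limma, beside 2.58% of all tested genes, and 0 had an unadjusted p under 0.05, beside 16.4%. With array weights in the fit, 1 gene passed, Mylpf, with a change of -0.58 (adjusted p = 0.0227). The changes ran from -0.47 to 0.24 with a median of -0.08. Their standard errors ran from 0.106 (Cacna1s) to 0.496 (Myh8), against a median of 0.11 over all tested genes. Most members were thus measured less precisely than the typical tested gene, and the shares are not set at equal precision. Myh1 averaged 9.81 ± 0.24 in Stat3Δhc and 9.90 ± 0.28 in floxed liver (SD, n = 3 each), a change of -0.08 with a 95% interval from -0.43 to 0.27. The slow chain Myh7 had a change of -0.14 (-0.39 to 0.11). For Myh8 the interval ran from -1.54 to 0.60, so a sizeable difference in either direction would not have been detectable.

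On the Mdr2 knockout, 0 of 36 genes passed, beside 5.77% of all tested genes, and 6 had an unadjusted p under 0.05, beside 28.0%. Of the 36 genes, 11 lay below the 40th percentile in all 6 arrays of this comparison and were tested only because they are high elsewhere, so the test says nothing of them. Over the 18 genes above it in at least 3 Mdr2-/- arrays, 0 passed, 5 had an unadjusted p under 0.05, the median change was 0.19 and 14 changes were positive. The nearest to the threshold was Ckm, at 6.35, 6.52 and 6.95 in Mdr2-/- Stat3Δhc against 6.06, 6.02 and 5.88 in Mdr2-/- floxed liver (change 0.62, SE 0.19, limma adjusted p = 0.0692), with no overlap. Myh7 had a change of 0.36 (SE 0.12, adjusted p = 0.0760), but exceeded the 40th percentile in only 2 Mdr2-/- arrays and is not among these 18 genes. Xist was high in all 3 Mdr2-/- floxed arrays and in 1 of the 3 Mdr2-/- Stat3Δhc arrays, and the Y-linked Uty was called in this comparison (2.96, adjusted p = 0.0300). The part of sex in these changes and in the difference of the Stat3 effects was not tested. Without array A of Mdr2-/- Stat3Δhc liver, after which Stat3 deletion and the Xist pattern cannot be told apart, both passed (Ckm 0.75, adjusted p = 0.0404, and Myh7 0.50, adjusted p = 0.0175), and without array B of floxed liver Ckm passed (0.62, adjusted p = 0.0373). With array weights 4 genes passed, Ckm, Mb, Myh7 and Myoz1, with changes of 0.40 to 0.68. Myoz1 exceeded the 40th percentile in only 1 Mdr2-/- array, so Myoz1, like Myh7, entered testing through the Mdr2-intact arrays. The other genes with an unadjusted p under 0.05 were Tnnc1, Cacna1s, Mb and Eno3, with changes of 0.25 to 0.34. Among the further skeletal muscle genes 1 of 32 was higher, beside 1.87% of all tested genes. This was Cox7a1, a muscle subunit of cytochrome oxidase, singled out after its values were seen (change 0.80, adjusted p = 0.0264).

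The difference of the Stat3 effects (on the knockout minus with intact Mdr2) passed for 0 of 36 genes, beside 0.0715% of all tested genes, and 4 had an unadjusted p under 0.05, beside 16.9%. These were Myh2 (0.66, SE 0.27, limma adjusted p = 0.266), Myh7 (0.50, SE 0.16, adjusted p = 0.226), Eno3 (0.40, SE 0.15, adjusted p = 0.251) and Cacna1s (0.34, SE 0.15, adjusted p = 0.279). With array weights Myh7 passed (0.58, adjusted p = 0.0318). Myh2 lay below the 40th percentile in every Mdr2-/- array, and Myh7 exceeded it in only 2 of them. The contrast draws on the Mdr2-/- arrays, where 11 of the 36 genes never exceeded that percentile. For those 11 genes the difference was not resolved, and only 18 genes exceeded it in at least 3 Mdr2-/- arrays. The p-values do not show that Stat3 deletion acts alike in both settings.

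**Figure D5:**
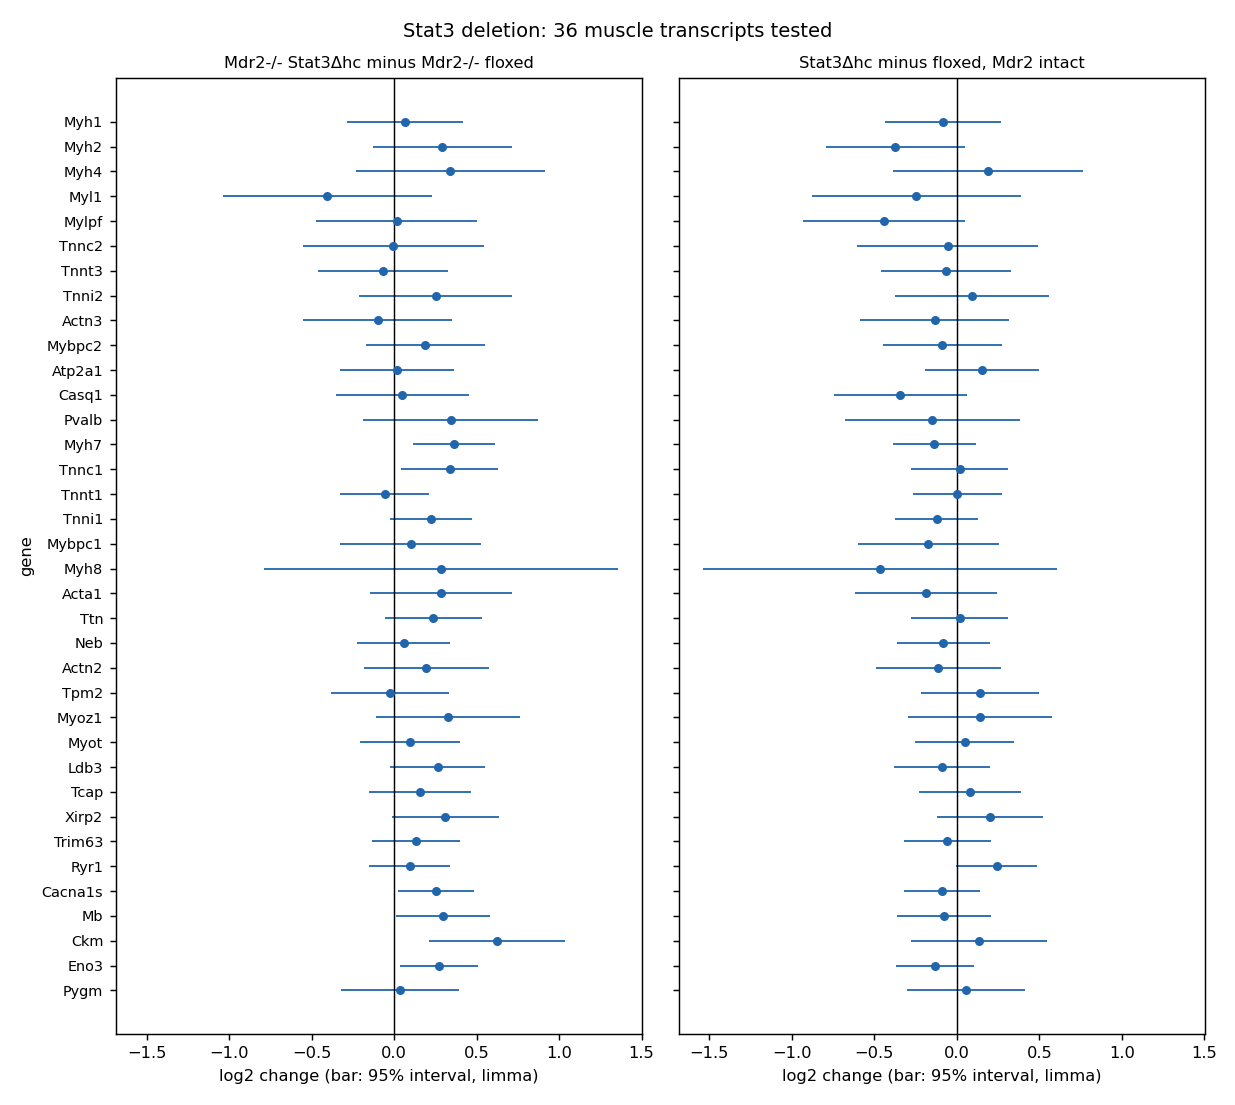
Log2 change with Stat3 deletion for the 36 tested genes on the Mdr2 knockout (left) and with intact Mdr2 (right), with 95% intervals from limma. Intervals with intact Mdr2 all include 0, and that of Myh8 is the widest.

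Outside all lists, the genes most like the set in their deviations from the genotype means over the 12 arrays were Prrx1, Ehmt2, Bach2, Zfp687, Srl, Cavin4, Dchs1, Klk10, Atp13a2 and Spry2, with Pearson correlations of 0.94 to 0.90. Of these, Srl, a calcium-binding protein of the muscle sarcoplasmic reticulum, and Cavin4, a caveolar protein of muscle, averaged 5.65 and 4.69 in the 6 Mdr2-/- arrays, against 7.15 and 5.64 in the other 6. Ehmt2, a histone methyltransferase, averaged 8.41 against 8.35 and so shared the deviations without the difference between genotypes. These are the highest correlations among genes outside the lists, picked from many, and the points share arrays and tissue pieces.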

How the data were processed

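The arrays hold log2 values that RMA produced, deposited by the authors (per the submitters' processing notes, without a version). Of 35556 transcript clusters, 21789 name 1 gene in the platform annotation, 1621 several and 12146 none. A gene took its cluster of highest mean, which gave 19938 genes. Testing was limited to the 13977 genes whose signal exceeded the 40th percentile of 3 or more arrays, 36 of the 37 members among them. One limma fit (3.58.1, R 4.3.3) of all 12 arrays, with lmFit and eBayes and 8 residual degrees of freedom, gave the Stat3 comparisons and their difference. P-values were adjusted over all tested genes by Benjamini-Hochberg, with calls at 0.05. The fit was tested on simulated data. Mdr2 differences of the members are differences of means with no test. Figures used matplotlib 3.10.9 in Python 3.11.15.

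The members and the other lists were chosen with earlier results of these data known. Named genes are all members, the 4 genes per other list with the largest difference between arrays with and without the knockout, Stat3, Abcb4, Xist, and the 10 genes outside the lists most correlated with the member mean within genotypes. Cox7a1 and Uty were named outside this rule, after their values were seen. Having 3 arrays per genotype limits the precision (median standard error 0.11 over all tested genes when 2 genotypes are compared). Other settings tried were: array weights, a replicate block, source names as groups, each array left out in turn, fits restricted to the compared groups, median centring, cyclic loess, eBayes with trend and robust options, averaged clusters per gene, and filters at the 60th percentile or none. The letters were not treated as pairs in the main fit: 4 of 18 correlations of same-letter deviations exceeded 0.1 (range -0.409 to 0.366). Between Stat3Δhc and floxed liver with intact Mdr2 they were 0.268 (A), 0.073 (B) and 0.366 (C). Probe-level files were not used here.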

Additional observations from a re-analysis of the deposited data

How the results depend on the processing

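For the Stat3 comparisons the count of members called moved under array weights, to 1 with intact Mdr2 (Mylpf, change -0.58, limma adjusted p = 0.0227), 4 on the Mdr2 knockout (Ckm, Mb, Myh7 and Myoz1) and 1 for the difference of the effects (Myh7), and the cause was not tested. Myh7 and Myoz1 entered testing through the Mdr2-intact arrays. Leaving out 1 array gave 0 to 2 members on the knockout, where Ckm was called without array B of floxed liver and Ckm and Myh7 without array A of Mdr2-/- Stat3Δhc liver. With the replicate block the counts were 0, 0 and 0. The median Mdr2 difference of all 37 members in floxed liver (-2.09) ran from -2.654 (without array A of floxed liver) to -1.983 when 1 array was left out, and in Stat3Δhc liver from -2.268 to -1.936 over all settings. Under the other settings each count was 0, the medians moved by less than 0.214 (the SD of the member median within genotypes), and no median changed sign. Among further skeletal muscle genes, 15 to 28 fell in Stat3Δhc liver and 16 to 29 in floxed liver. Counts for small lists moved more, the pancreas count in Stat3Δhc liver from 1 to 12. The low end of the array scale limits what can be read of 12 members in Mdr2-/- liver.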
